A study of Mus musculus with 10 samples.

Results

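The growth hormone to STAT5 and IGF1 axis of the liver was followed through 10 genes, chosen by name: the receptor gene Ghr, the kinase gene Jak2, the signal transducers Stat5a and Stat5b, the secreted products Igf1 and Igfals, the feedback inhibitors Socs2 and Cish, and the transcriptional repressors Bcl6 and Cux2. All 10 had a feature of the array that names no other gene, out of 19938 genes measured. A gene with several features was read through the feature with the highest mean over all 10 arrays, and of the 10 genes only Socs2 had more than 1 such feature.

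RNA from livers of male C57BL/6J mice was hybridised to Affymetrix Gene ST arrays, which read a transcript with many short probes along its exons. All mice were 8 weeks old when an adenovirus was injected into the tail vein, and 3 weeks later, in the fed state, they were studied. The virus carried Phf2, a histone demethylase, in 5 mice and GFP, a fluorescent protein, in the other 5, so that both groups had received a virus. Mice that did not overexpress their transgene had been removed from the cohort, and neither the way this was judged nor the promoter that drove the adenoviral transgene is given in the sources used here. The annotated Phf2 feature differed by -0.05 on the log2 scale (SE 0.08, adjusted p = 0.751). The paper's Phf2 plasmid insert was amplified from cDNA of a cell line, and the species of the adenoviral Phf2 sequence is not stated. The part of the gene that the feature reads is not given either, so that the feature does not check the group labels.

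Growth hormone from the pituitary binds its receptor on hepatocytes, and the receptor-bound kinase Jak2 then phosphorylates STAT5, which enters the nucleus and switches on Igf1, Igfals, Socs2 and Cish. IGF1 leaves the liver bound to the acid-labile subunit made from Igfals, while SOCS2 and CIS, the protein of Cish, dampen the receptor. In rodents growth hormone is released in pulses in males and more steadily in females, and this pattern, read through STAT5b, sets the expression of many liver genes that differ between the sexes.

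STAT5 dimers are known to bind the palindrome TTCNNNGAA, where N is any base. It was searched in the RefSeq promoter windows of assembly GRCm38.p6, each reaching from 250 bases before to 50 bases after an annotated start. The motif reads the same on both strands, and no other motif was searched. It occurred in 2726 of 32851 windows (8.3%) and, counted by gene, in at least 1 window of 2582 of 27025 genes (9.55%). Windows were found for 9 of the 10 axis genes, Socs2 having none. Of their 16 windows 5 held the motif, and these belonged to Cish, Igfals and Bcl6. A match describes letters of the window and does not show that a factor binds there, and a window without it says nothing about sites elsewhere.

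The windows below are shown for the product genes that fell in Phf2 livers, Igfals and Igf1, and for Cish and Bcl6, whose values are set against each other liver by liver further on. Capitals mark the motif. The Cish window (chr9:107296409-107296708, plus strand) held TTCCTGGAA from base 1, the annotated start, and TTCTTGGAA from base 12. Igfals has 3 windows on the plus strand. The 2 shown (chr17:24877594-24877893 and chr17:24877981-24878280) held TTCTCAGAA 236 bases and TTCCTAGAA 58 bases before their starts, and the third (chr17:24878497-24878796, not shown) held no match. Bcl6 has 2 windows on the minus strand. The window shown (chr16:23981234-23981533), which has the most matches, held TTCCTGGAA, TTCTGTGAA and TTCCGGGAA at 168, 122 and 88 bases before its start, and the other (chr16:23988803-23989102, not shown) held TTCTCAGAA 118 bases before its start. The Igf1 window (chr10:87860861-87861160, plus strand) held no match.
Cish: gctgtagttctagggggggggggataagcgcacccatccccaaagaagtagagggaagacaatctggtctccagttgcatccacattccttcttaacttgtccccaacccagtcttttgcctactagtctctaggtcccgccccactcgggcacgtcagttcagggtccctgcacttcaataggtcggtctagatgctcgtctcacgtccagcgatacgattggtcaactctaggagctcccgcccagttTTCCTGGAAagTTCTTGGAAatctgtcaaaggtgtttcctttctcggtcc
Igfals, first window: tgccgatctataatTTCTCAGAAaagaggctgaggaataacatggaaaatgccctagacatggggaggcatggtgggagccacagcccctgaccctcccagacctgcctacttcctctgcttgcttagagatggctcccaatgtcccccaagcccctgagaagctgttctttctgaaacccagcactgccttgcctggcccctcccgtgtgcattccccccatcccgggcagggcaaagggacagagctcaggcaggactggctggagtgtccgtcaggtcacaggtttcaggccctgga
Igfals, second window: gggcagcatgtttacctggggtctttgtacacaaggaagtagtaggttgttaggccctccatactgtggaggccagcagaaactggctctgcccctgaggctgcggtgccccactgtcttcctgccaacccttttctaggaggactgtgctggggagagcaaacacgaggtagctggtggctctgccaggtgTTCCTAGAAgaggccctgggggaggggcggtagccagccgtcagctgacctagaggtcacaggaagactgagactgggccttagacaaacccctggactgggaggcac
Bcl6: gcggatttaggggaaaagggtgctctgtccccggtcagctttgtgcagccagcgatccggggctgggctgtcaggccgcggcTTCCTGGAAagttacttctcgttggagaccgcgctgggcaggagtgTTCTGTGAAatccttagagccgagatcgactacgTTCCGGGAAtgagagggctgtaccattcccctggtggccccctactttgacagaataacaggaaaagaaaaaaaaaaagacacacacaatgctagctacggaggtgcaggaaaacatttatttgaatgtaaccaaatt
Igf1: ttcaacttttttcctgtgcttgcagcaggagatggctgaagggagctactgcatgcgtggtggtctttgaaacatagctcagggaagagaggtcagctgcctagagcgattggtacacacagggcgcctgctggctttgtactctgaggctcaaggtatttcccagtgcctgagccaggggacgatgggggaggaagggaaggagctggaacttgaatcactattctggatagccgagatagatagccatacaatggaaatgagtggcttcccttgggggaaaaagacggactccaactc

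Phf2 livers had lower Ghr, Igf1, Igfals and Socs2 than GFP livers, and no gene of the axis was called higher. On the log2 scale Socs2 fell by 1.63 in its feature with the highest mean and by 0.65 in its other feature. Igfals fell by 1.57, Igf1 fell by 0.64 and Ghr fell by 0.37. Jak2, Stat5a, Stat5b, Cish, Bcl6 and Cux2 did not pass the test. These values are differences of mean log2 RMA values (Phf2 minus GFP), and a call is an adjusted p under 0.05 from limma with Benjamini-Hochberg adjustment over all 19938 genes. Of the 10 genes 4 were called lower, against 4.24% of all genes, and 0 were called higher, against 5.43% of all genes. In either direction 9.67% of all genes were called. The 10 genes were chosen with earlier results of these data known, so that no count of them here is a test of the axis. At an unadjusted p under 0.05 only Stat5a was higher. The median change of the 10 genes was -0.25, and that of all genes was -0.01. Under the study's thresholds of 1.5-fold and an unadjusted p under 0.05, 3 of the 10 were lower (Igf1, Igfals and Socs2) and 0 were higher, where 1.16% of all genes were lower and 2.38% higher. The groups did not overlap, with every Phf2 liver below every GFP liver, for 4 of the 10 genes against 4.36% of all genes. The opposite order, with every Phf2 liver above, was found for 0 of the 10 against 4.71% of all genes. The main analysis split the calls over all genes into 1083 higher and 846 lower. Centring each array on its median gave 829 higher and 959 lower, and a further quantile normalization gave 1024 higher and 1066 lower, with the same number of axis genes called lower in both.

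**Figure D1:**
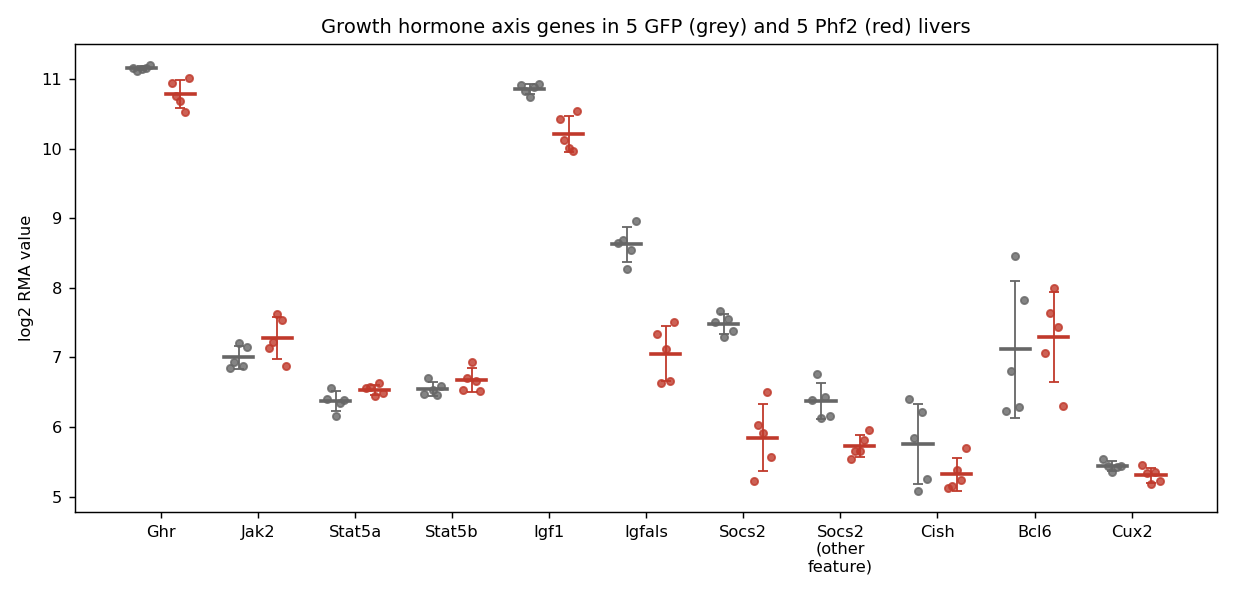
Log2 RMA value of each growth hormone axis gene in 5 GFP livers (grey) and 5 Phf2 livers (red), with both features of Socs2; each point is 1 liver, thick lines are group means and bars are SD. The points of the groups do not overlap for Ghr, Igf1, Igfals and either Socs2 feature, and levels of different genes are not comparable on this scale.

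Ghr encodes the growth hormone receptor, whose cut extracellular part also circulates as the growth hormone binding protein. Its log2 values in GFP livers 1 to 5 were 11.15, 11.12, 11.14, 11.15 and 11.20, and those in Phf2 livers 1 to 5 were 10.95, 10.76, 10.68, 10.53 and 11.01. The GFP livers lay within 0.08 of each other, and every Phf2 liver was below them, with replicate 4 lowest and replicate 5 highest. The difference was -0.37 (SE 0.09, 95% confidence interval -0.55 to -0.18, adjusted p = 0.0185), which is 1.29-fold lower. Under the methods' t-test the adjusted p was 0.0516, above the threshold. An exact two-sided permutation test of Ghr gave p = 0.00794, the smallest value that 5 against 5 arrays allow.

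Jak2 encodes the tyrosine kinase that is bound to the receptor. Its log2 values were 6.84, 6.94, 7.20, 6.87 and 7.16 in GFP livers and 7.14, 7.22, 7.62, 7.54 and 6.88 in Phf2 livers. Phf2 replicates 2, 3 and 4 lay above all GFP livers, replicate 2 narrowly, and replicates 1 and 5 lay within their range. The difference of 0.28 (SE 0.13, 95% confidence interval -0.01 to 0.57) was not called (adjusted p = 0.251).

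The STAT5 proteins are 2 closely related transcription factors, of which STAT5b predominates in liver. Stat5a was between 6.16 and 6.56 in GFP livers and between 6.44 and 6.63 in Phf2 livers, a difference of 0.17 (SE 0.08, adjusted p = 0.211). Stat5b was between 6.46 and 6.71 in GFP livers and between 6.52 and 6.94 in Phf2 livers, a difference of 0.12 (SE 0.09, 95% confidence interval -0.06 to 0.31, adjusted p = 0.461). The groups overlapped for both, and their mean differences were positive, opposite in sign to that of Ghr. Arrays measure the RNA only, and phosphorylation of STAT5 was not measured here.

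Igf1, the circulating growth factor that liver makes under growth hormone, had log2 values of 10.91, 10.83, 10.73, 10.89 and 10.92 in GFP livers. In Phf2 livers 1 to 5 it had 10.43, 10.13, 10.01, 9.96 and 10.53. Every Phf2 liver was below every GFP liver, and the spread was larger in the Phf2 group (SD 0.26, n = 5) than in the GFP group (SD 0.08, n = 5), a difference in spread that was not tested. Igf1 was 1.56-fold lower (log2 difference -0.64, SE 0.11, 95% confidence interval -0.88 to -0.41, adjusted p = 0.00247).

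Igfals encodes the acid-labile subunit, which holds IGF1 and an IGF binding protein in a long-lived complex in blood. GFP livers 1 to 5 had log2 values of 8.65, 8.69, 8.27, 8.54 and 8.96, and Phf2 livers had 7.33, 6.63, 7.12, 6.66 and 7.51. Every Phf2 liver was below every GFP liver, with Phf2 replicates 2 and 4 lowest. Igfals was 2.97-fold lower (log2 difference -1.57, SE 0.18, 95% confidence interval -1.95 to -1.19, adjusted p = 0.000161). The Igfals windows hold the STAT5 palindrome at 2 of its 3 annotated starts, and the Igf1 window shown above has none. Whether such sites bear on either change was not tested.

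Socs2 encodes a suppressor of cytokine signalling that targets the growth hormone receptor. Its feature with the highest mean had log2 values of 7.51, 7.67, 7.29, 7.55 and 7.37 in GFP livers and 5.23, 6.03, 5.92, 6.50 and 5.58 in Phf2 livers. The groups did not overlap, and the order among Phf2 livers, with replicate 1 lowest and replicate 4 highest, differed from that of Ghr. The feature was 3.09-fold lower (log2 difference -1.63, SE 0.19, 95% confidence interval -2.04 to -1.22, adjusted p = 0.000198).

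The array has 2 features annotated to Socs2, and both were lower. In the other feature the values were 6.39, 6.76, 6.13, 6.43 and 6.16 in GFP livers against 5.54, 5.66, 5.66, 5.82 and 5.95 in Phf2 livers, again without overlap. Its difference was -0.65 (SE 0.12, 95% confidence interval -0.90 to -0.39, adjusted p = 0.00448), or 1.57-fold lower. Feature numbers of this array largely follow the genome, and for the other 9 axis genes all 6 of the features nearest in number belonged to genes of the same chromosome. Of the 6 features nearest in number, 5 belonged to genes of the Socs2 chromosome for this other feature (Plxnc1, Cradd, Mrpl42 and Nudt4 among them), and 0 did for the feature with the highest mean, which lies among features of Nbas, Ntsr2, E2f6 and Pdia6. The sequence that either reads is not given, so that the direction is shared by both features while the size of the Socs2 change, -1.63, -0.65 or -1.14 for the mean of both, depends on the feature.

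Cish encodes CIS, the STAT5-induced inhibitor after which the SOCS family was found. Its log2 values were 6.41, 5.84, 5.09, 6.21 and 5.25 in GFP livers and 5.13, 5.15, 5.38, 5.25 and 5.70 in Phf2 livers. GFP livers 1, 2 and 4 lay above all Phf2 livers, GFP liver 5 lay among them, and GFP liver 3 lay below all of them. The difference of -0.44 (SE 0.23, 95% confidence interval -0.94 to 0.06) was not called (adjusted p = 0.301), and the interval includes falls larger than that of Ghr.

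Bcl6, a repressor that STAT5 turns down and that competes with STAT5 at its sites, had log2 values of 6.23, 6.80, 8.45, 6.28 and 7.83 in GFP livers and 7.07, 7.64, 8.00, 7.43 and 6.31 in Phf2 livers. Bcl6 varied within the groups far more than between them, with an SD of 0.99 in GFP and 0.64 in Phf2 livers (n = 5 each). The difference was 0.17 (SE 0.43, 95% confidence interval -0.76 to 1.10, adjusted p = 0.87), and it was negative without GFP replicate 1 (-0.05), GFP replicate 4 (-0.04) or Phf2 replicate 3 (-0.01).

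Cux2, a repressor made mainly in female liver, was between 5.35 and 5.54 in GFP livers and between 5.18 and 5.45 in Phf2 livers. The groups overlapped and the difference was -0.13 (SE 0.07, 95% confidence interval -0.28 to 0.01, adjusted p = 0.273). No rise of Cux2 was thus detected in these male livers, where its values lay near the array medians of 5.06 to 5.18.

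**Figure D2:**
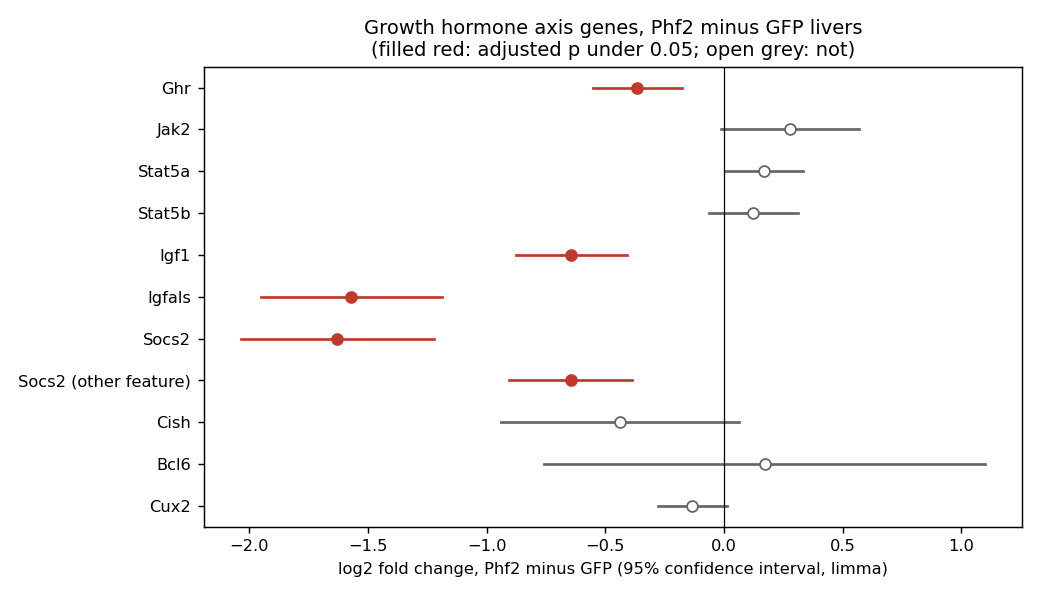
Change of each axis gene (difference of log2 means, Phf2 less GFP) with its 95% confidence interval from limma; filled red points have an adjusted p under 0.05 and open grey points do not. Igfals and the Socs2 feature with the highest mean lie near -1.6, and Igf1, Ghr and the other Socs2 feature closer to 0. The interval of Bcl6, from -0.76 to 1.10, is the widest.

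High Cish came with low Bcl6 in part of the livers. The 4 arrays with the highest Cish were GFP 1, GFP 4, GFP 2 and Phf2 5, and these were also the 4 arrays with the lowest Bcl6, at 6.23, 6.28, 6.80 and 6.31. The highest Bcl6 value, 8.45 in GFP replicate 3, came with the lowest Cish value, 5.09. The remaining 5 livers (Phf2 3, GFP 5, Phf2 4, Phf2 2 and Phf2 1, from higher to lower Cish) did not follow this order, with Bcl6 at 8.00, 7.83, 7.43, 7.64 and 7.07. Onecut1, a liver transcription factor known to be induced by growth hormone, also ran with Cish within the GFP group, where replicates 4, 1 and 2 had 8.72, 8.47 and 8.19 and replicates 5 and 3 had 7.89 and 7.22. Among Phf2 livers Onecut1 was highest in replicate 5, at 7.61, and between 6.21 and 6.81 in the rest. This description was chosen after the values were seen and has no test. Both Socs2 features also put GFP replicates 1, 2 and 4 above replicates 3 and 5, at 7.51 to 7.67 over 7.29 and 7.37 in the main feature and at 6.39 to 6.76 over 6.13 and 6.16 in the other. Ghr, Igf1 and Igfals were instead highest in GFP replicate 5.

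**Figure D3:**
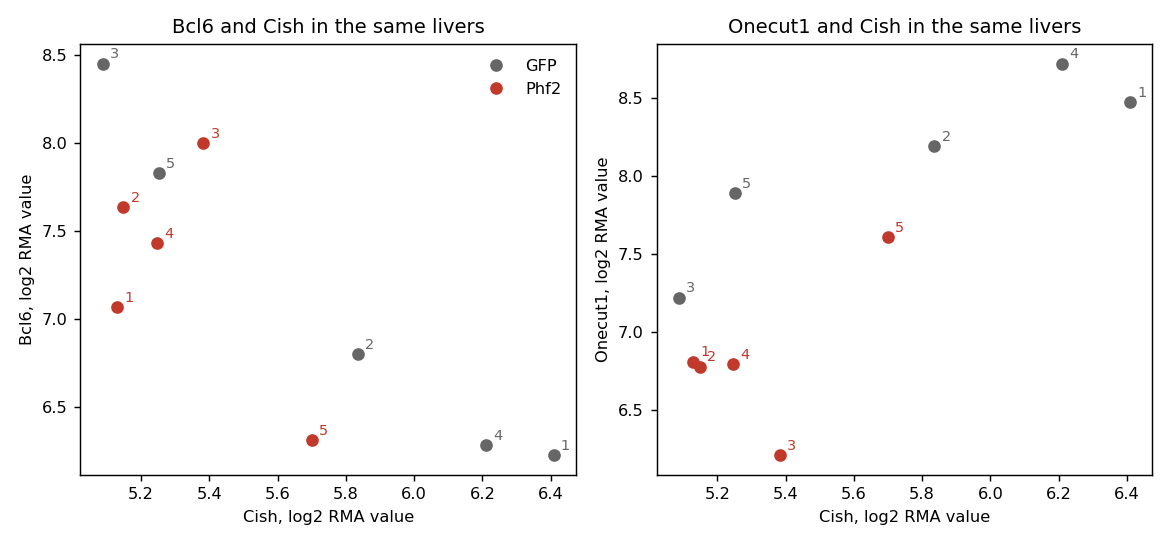
Log2 RMA values of Bcl6 (left) and Onecut1 (right) against Cish in the same 10 livers, GFP grey and Phf2 red, with replicate numbers beside the points. The 4 livers with the highest Cish, GFP 1, 2 and 4 and Phf2 5, have the 4 lowest Bcl6 values.

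The Phf2 livers differed among themselves in how far the axis genes were from the GFP mean. Ghr was 0.62 below it in replicate 4 (difference -0.62), and -0.47, -0.39, -0.20 and -0.14 from it in replicates 3, 2, 1 and 5. Igf1 had the same order of livers, at -0.90, -0.85, -0.73, -0.43 and -0.32. Igfals was farthest from the GFP mean in replicates 2 and 4 (-1.99 and -1.96) and nearest in replicate 5 (-1.11). Socs2 had another order, at -2.25 in replicate 1 and -0.98 in replicate 4 for the feature with the highest mean, and its other feature was farthest in replicate 1 (-0.83) and, unlike the main feature (-1.90), nearest in replicate 5 (-0.42).

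The mean of 7 hepatocyte markers put the Phf2 livers in the same order as Ghr, at -0.51 in replicate 4 and -0.09 in replicate 5. The markers of hepatocytes were high on all arrays, with array means from 11.44 to 12.00, and no marker of any list was at 0. Among these markers Tat (-0.83, SE 0.23, adjusted p = 0.0407) and Cps1 (-0.57, SE 0.15, adjusted p = 0.032) fell most. Of the 7, 3 were called lower, against 4.24% of all genes, and 0 higher, with a median of -0.21. The sum of their log2 values lay between 83.21 and 83.99 in GFP livers and between 80.1 and 83.08 in Phf2 livers. In bulk liver RNA fewer hepatocytes and less RNA of these markers per hepatocyte cannot be told apart. The markers ranged from -0.83 for Tat to -0.01 for Alb, with Ttr at -0.06 and Hnf4a at -0.09, named after their values were seen. Tat and Cps1 thus fell by more than Ghr. The part of any shift in hepatocyte RNA in the changes of the axis genes was not tested.

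Markers of T and NK cells rose, with 6 of 8 called higher and 0 lower, where 5.43% of all genes were called higher and 4.24% lower. Their median was 0.85 (Cd3g 1.5, SE 0.27, adjusted p = 0.00393, and Gzma 1.24, SE 0.16, adjusted p = 0.000454). The sum of their log2 values was 40.05 to 42.71 in GFP and 45.83 to 52.5 in Phf2 livers. Among Phf2 livers their mean was highest in replicate 4 and lowest in replicate 5. With this mean as a covariate, which separates the groups without overlap, calls over all genes dropped to 30 higher and 9 lower. Under it 1 axis gene was called lower, which was Socs2 in its feature with the highest mean. Its difference was then larger, at -2.51 (SE 0.28, adjusted p = 0.00723) against -1.63 without the covariate. The other Socs2 feature was not fitted with this covariate. Ghr changed sign (0.06, SE 0.12, adjusted p = 0.992). Igf1 was then -0.10 (SE 0.15, adjusted p = 0.978) and Igfals -0.94 (SE 0.32, adjusted p = 0.571). Kupffer cell and macrophage markers went both ways, 1 of 8 higher (Mpeg1 0.93, SE 0.19, adjusted p = 0.00848) and 3 lower (Timd4 -1.59, SE 0.19, adjusted p = 0.000252, and Clec4f -0.54, SE 0.11, adjusted p = 0.00617, fell most). Their log2 values summed to 60.15 to 66.61 in GFP and 60.27 to 62.8 in Phf2 livers. In the remaining lists 1 of 6 sinusoidal endothelial markers rose (Lyve1 0.51, SE 0.12, adjusted p = 0.0211) and 1 of 7 stellate markers rose (Hgf 0.49, SE 0.13, adjusted p = 0.0375). No B cell or plasma cell marker (5 measured), bile duct marker (4 measured) or pancreatic acinar marker (6 measured) was called, and the smallest p in these lists belonged to Mzb1 (0.21, SE 0.07, adjusted p = 0.0973), Krt7 (0.31, SE 0.10, adjusted p = 0.0872) and Cela1 (-0.15, SE 1.02, adjusted p = 0.959). Acinar markers nevertheless differed widely between livers, with array means from 6.65 to 12.42 in GFP and from 6.39 to 10.93 in Phf2 livers, and with their mean as a covariate 4 axis genes were called lower as before.

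**Figure D4:**
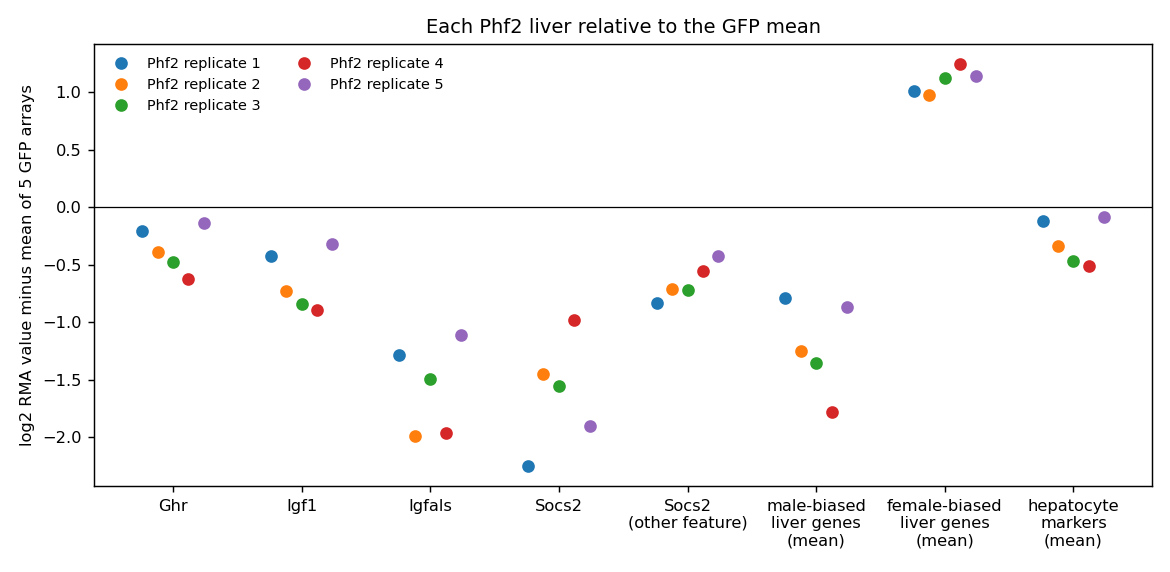
Log2 RMA value of each Phf2 liver minus the mean of the 5 GFP arrays, for the called axis genes, the other Socs2 feature, and the means of the male-biased, female-biased and hepatocyte lists; each colour is 1 Phf2 liver. Replicate 4 is lowest in Ghr, Igf1, the male-biased genes and the hepatocyte markers, but highest of the 5 in the main Socs2 feature.

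The other JAK and STAT genes showed little change. Of 6 measured, 1 was called lower and 0 higher, with a median of 0.02. Over all genes 4.24% were called lower and 5.43% higher. The called gene was Stat3, which carries signals of interleukin 6 and leptin (-0.27, SE 0.08, adjusted p = 0.0448), and the call was lost in 11 of 19 alternative analyses, with adjusted p up to 0.0997. Of 14 other SOCS, phosphatase and PIAS genes, which restrain cytokine signalling, 0 were called in either direction at a median of 0.05. The smallest p among them was that of Socs7 (0.26, SE 0.11, adjusted p = 0.158), which was called without Phf2 replicate 1 (adjusted p = 0.0359).

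Among 11 receptors and adaptors related to the growth hormone receptor, 1 rose, 2 fell and 8 were not called. Over all genes 5.43% were called higher and 4.24% lower. Lepr, the leptin receptor, a cytokine receptor of the same class as Ghr, rose 2.25-fold (log2 difference 1.17, SE 0.11, adjusted p = 3.37e-05). Its log2 values were 4.76, 5.02, 5.08, 4.67 and 5.14 in GFP livers and 6.10, 6.15, 6.23, 6.21 and 5.83 in Phf2 livers. Lifr, the receptor of leukaemia inhibitory factor, moved the other way and fell 2.44-fold (log2 difference -1.29, SE 0.11, adjusted p = 1.72e-05). Egfr, the epidermal growth factor receptor, whose liver expression depends on growth hormone, fell 2.80-fold (log2 difference -1.48, SE 0.18, adjusted p = 0.000248). Egfr values were 10.21, 10.42, 10.37, 10.28 and 10.60 in GFP livers and 9.48, 8.90, 8.66, 8.30 and 9.12 in Phf2 livers. The groups did not overlap in any of the 3.

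Of 13 IGF ligands, receptors, binding proteins and their proteases, 1 rose, 2 fell and 10 were not called, with a median near 0 (-0.0047). Over all genes 5.43% were called higher and 4.24% lower. Igfbp2, a binding protein that carries IGF in smaller complexes, fell 2.10-fold (log2 difference -1.07, SE 0.13, adjusted p = 0.00028). Its values ran from 8.40 to 9.03 in GFP livers and from 7.35 to 7.95 in Phf2 livers. Igfbp4, another binding protein, was lower by a difference of -0.47 (SE 0.10, adjusted p = 0.00822). Igf2r, the clearing receptor of IGF2, was higher by 0.31 (SE 0.09, adjusted p = 0.038), a call that was lost in 11 of 19 alternative analyses, centring on array medians among them (adjusted p = 0.0714). Igfbp3, the binding protein that forms the complex with IGF1 and the acid-labile subunit, was named after its values were seen, and its difference of -0.41 was not called (adjusted p = 0.121).

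Of 12 liver transcription factors known to act beside STAT5, 4 fell, against 4.24% of all genes, 0 rose and 8 were not called. The median was -0.28. Onecut1 fell by 1.26 on the log2 scale (SE 0.28, adjusted p = 0.0134), with overlap between GFP replicate 3 and Phf2 replicate 5, and its adjusted p was 0.0723 under the methods' t-test. Rxra, the partner of many nuclear receptors, fell by 0.63 (SE 0.06, adjusted p = 5.69e-05) without overlap. The other called factors, Foxa1 and Cebpa, are named to complete the count of 4, with differences of -0.46 and -0.32.

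Genes that growth hormone keeps at different levels in male and female liver moved in opposite directions by list. Both lists were chosen with earlier results of these data known. Of 15 male-biased genes measured, 9 fell, 0 rose and 6 were not called, with a median of -0.58. Over all genes 4.24% were called lower and 5.43% higher. All 15 differences were negative. The groups did not overlap, with Phf2 lower, for 10 of the 15, against 4.36% of all genes. Hsd3b5, a steroid dehydrogenase of male liver, went from 10.94 to 11.20 in GFP livers to 8.00, 5.74, 5.45, 3.83 and 7.50 in Phf2 livers (log2 difference -4.93, SE 0.61, adjusted p = 0.000322). Slco1a1, an organic anion transporter, had 8.93, 7.93, 7.65, 5.56 and 8.67 in Phf2 livers against 10.33 to 10.58 in GFP livers (difference -2.68, SE 0.48, adjusted p = 0.00398). In both, as in Ghr and Igf1, Phf2 replicate 4 was lowest and replicates 1 and 5 were highest.

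Of 19 female-biased genes measured, 11 rose, against 5.43% of all genes, 0 fell and 8 were not called. The median was 0.47, and 18 of the 19 differences were positive. Some of these differences were small and at low values. A1bg (0.10), Sult3a1 (0.17) and Cyp3a16 (-0.02), named after their values were seen, were not called and lay below the lowest array median, 5.06. Among the called genes, Hao2 (0.35) and Ntrk2 (0.55), named in the same way, also lay below it in both groups. Without dim features 9 female-biased genes were called higher. Cyp2b9, a cytochrome P450, had 5.32, 4.88, 6.52, 5.74 and 7.59 in GFP livers and 10.65 to 11.15 in Phf2 livers (difference 4.87, SE 0.39, adjusted p = 1.55e-05). Slc22a27, an organic anion transporter, had 4.34 to 5.77 in GFP livers and 8.57 to 9.21 in Phf2 livers (difference 3.93, SE 0.23, adjusted p = 1.54e-06). The Phf2 livers differed less in the mean of this list, from 0.98 to 1.25 above the GFP mean, than in that of the male-biased list, from -1.78 to -0.79. Several genes of both lists have near-identical neighbours in gene families (Cyp2b, Cyp3a, Cyp4a, Mup, Slc22a), and probes shared between such copies cannot be told apart here. The T and NK cell mean separates the groups without overlap, so that its effect and that of the group cannot be cleanly told apart. With it as a covariate, calls over all genes dropped to 30 higher and 9 lower. Then 0 male-biased genes were called lower and 1 female-biased gene, Slc22a27, was called higher (4.03, SE 0.51, adjusted p = 0.0105). Cyp2b9 then had a difference of 4.79 with a larger error (SE 0.86, adjusted p = 0.0643), while Hsd3b5 had -1.54 (SE 0.68, adjusted p = 0.78) and Slco1a1 had 0.02 (SE 0.53, adjusted p = 0.999).

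All 5 lipid genes that rise in livers lacking growth hormone signalling (Pparg, Cd36, Mogat1, Vldlr and Cidec) were called higher, against 5.43% of all genes. Their median was 1.67. The list was chosen with earlier results of these data known, so that the count is not a test of growth hormone signalling. The paper reports that Phf2 affected ChREBP and PPARγ networks, and the cause of the rises was not tested. Mogat1, an enzyme of diacylglycerol synthesis, rose by 2.43 (SE 0.13, adjusted p = 1.23e-06) and Cd36, a fatty acid carrier, by 1.98 (SE 0.15, adjusted p = 8.78e-06).

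**Figure D5:**
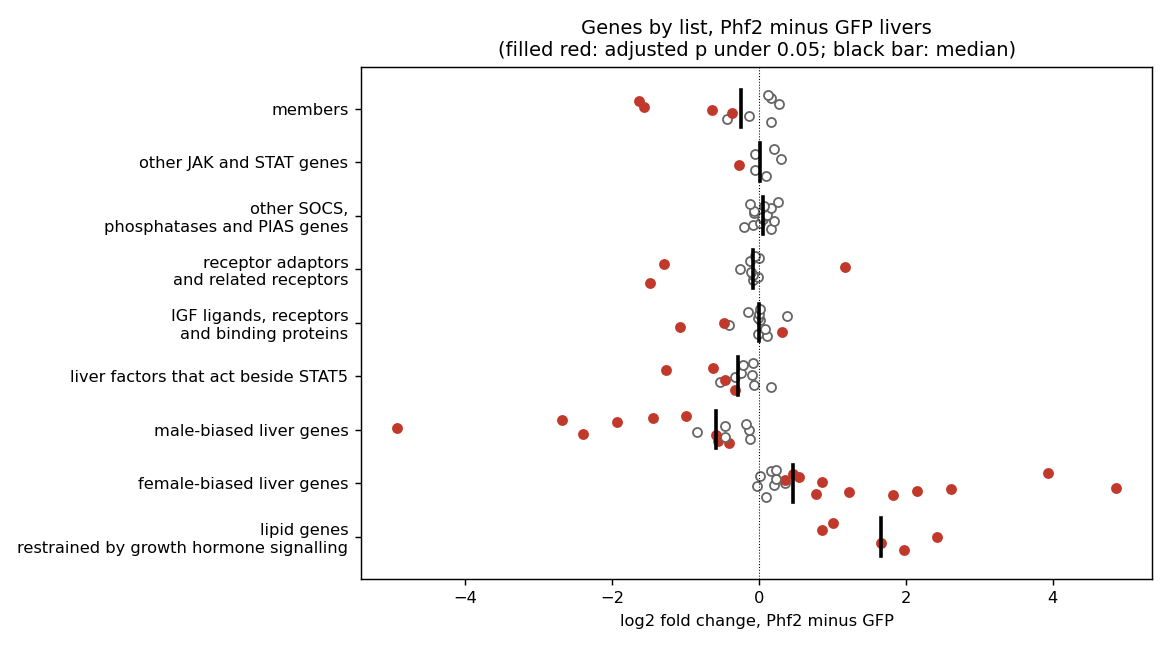
Change (difference of log2 means, Phf2 less GFP) of every measured gene of the axis and of the related lists; filled red points have an adjusted p under 0.05, open points do not, and black bars are list medians. The male-biased genes all lie below 0 (median -0.58), 18 of 19 female-biased genes lie above 0 (median 0.47), and the other JAK, STAT and SOCS genes lie between -0.27 and 0.30.

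The genes whose profile over the 10 arrays was most like that of Ghr were Pid1, Aqp9, Akr1c6, Hibadh and Amacr. Likeness is the root mean square of the differences between profiles, each centred on its own mean, and it lay between 0.0575 and 0.0624 on the log2 scale, against 0.222 for the profile of Ghr itself. For Igf1 they were Slc10a1, Serpina1d, Hagh, Hacl1 and Pecr, at 0.059 to 0.0695 against 0.364 for Igf1 itself. For Cux2 they were Cpa6, S100z, Asxl3, Foxd3 and Olfr96, at 0.0494 to 0.056 against 0.106. None of these is another gene of the axis. The nearest genes to Ghr and Igf1 were all lower in Phf2 livers, from -0.30 for Akr1c6 to -0.63 for Serpina1d, and those nearest to Cux2 differed by -0.16 to -0.09.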

How the data were processed

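Total RNA of 10 livers was measured on 1 array each, and the condition in the sample labels set the groups. The authors ran RMA in Bioconductor and statistics in Partek GS, and deposited log2 values for 35556 features. RMA makes array distributions alike (medians 5.06 to 5.18), so that a general shift in expression cannot be seen. No source used here gives versions or a genome build. A human array is named in the methods, but the features carry numbers of a mouse array, and methods and labels name different RNA kits.

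The platform annotation gave 1 symbol to 21789 features, several to 1621 and none to 12146. Of the 21789, 21698 were matched by gene number to RefSeq (GRCm38.p6), and 19938 genes remained, each read through its feature with the highest mean. Features naming several genes were left out. Phf2 and GFP livers were compared by limma (version 3.58.1, R version 4.3.3) with lmFit and eBayes without covariates, and p-values were adjusted over all genes by the Benjamini-Hochberg method, with calls at 0.05. The pipeline was tested on simulated data. Arrays correlated at 0.978 to 0.993, 0 pairs were identical, and the number of arrays limits the precision. The labels call the arrays biological replicates, and p-values measure the spread between these livers.

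The axis genes and all lists were chosen with earlier results of these data known. Named are all axis genes, and of each list up to 2 called genes that rose most and up to 2 that fell most, or the gene with the smallest p where none was called. Likeness names the 5 nearest genes to Ghr, Igf1 and Cux2. The analysis was repeated with array weights, with a trend of variance on intensity and a robust prior, under the methods' t-test, after quantile normalization or median centring, without dim features (mean under 5.12, the median), with adjustment over all features, with features of a gene averaged, with replicate number as a block, at the study's thresholds and without each array in turn. Marker means as covariates and the other Socs2 feature were added after the data were seen.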

Additional observations from a re-analysis of the deposited data

Results flagged for a closer look

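In 54 groups of 5 arrays (the axis genes and the named genes of the related lists), the highest or lowest array was set against the rest by Dixon's test, which by chance marks a small share of such groups. It marked 1. Mogat1, the diacylglycerol enzyme of the lipid list, had 4.68 in GFP replicate 1, whereas the other GFP livers lay between 3.93 and 4.11. The gap to the nearest array was 0.757 of the range of the group. The value lay below all Phf2 livers, the lowest of which was at 6.37.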

How the results depend on the processing

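In all 19 other analyses that used the adjusted p, Igf1, Igfals and Socs2 were called lower (highest adjusted p 0.0211, 0.0064 and 0.00721). Ghr was called lower in 18 of them, the exception being the methods' t-test (adjusted p = 0.0516), which called 3 axis genes lower. The study's thresholds, counted apart from the 19, also left Ghr out (1.29-fold) and had 3 axis genes lower. None of the 19 called an axis gene higher. Without 1 array, the change of Ghr ranged from -0.42 to -0.30, Igf1 from -0.72 to -0.58, Igfals from -1.68 to -1.47, Socs2 from -1.79 to -1.47 and Bcl6 from -0.0521 to 0.5049. The 19 analyses called 8 to 11 male-biased genes lower and 9 to 11 female-biased genes higher. Over all genes the methods' t-test called 694 higher and 616 lower, and adjustment over all features 741 and 606, against 1083 and 846. With the T and NK cell mean as a covariate, chosen after seeing the data, 1 axis gene and 0 male-biased genes were called lower and 1 female-biased gene higher, although Cyp2b9 kept a difference of 4.79 (SE 0.86, against 4.87 and 0.39). The sign then turned for Ghr (0.059), Jak2 (-0.35), Stat5b (-0.12), Bcl6 (-0.98), Igf2r (-0.0899) and Slco1a1 (0.0244), with standard errors from 0.12 to 0.85, and the cause was not tested. Since this mean separates the groups without overlap, its effect and that of the group cannot be cleanly told apart. The replicate numbers did not pair the livers, since deviations of same-numbered arrays correlated at -0.291 to -0.0421. With the number as a block, 855 genes were called higher and 659 lower, and 4 axis genes were lower. Cux2 lay between 5.18 and 5.54, near the array medians of 5.06 to 5.18.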
